A study of Homo sapiens with 16 samples.

Results

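The core and accessory subunits of Polycomb repressive complex 2 (PRC2) were followed through 6 RNA-seq libraries of HCT116, a human cell line established from a colorectal carcinoma. The set holds 10 genes, taken by symbol: the catalytic paralogs EZH1 and EZH2, the core subunits SUZ12, EED and RBBP4, and the accessory subunits JARID2, AEBP2, PHF1, MTF2 and PHF19. All 10 were among the 28502 symbols listed, and all 10 had a mean of at least 1 FPKM (a fragment count scaled by transcript length and library size), as did 11845 loci in all. Each gene had values of its own, shared with no other symbol.

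The cells had been transfected with a small interfering RNA (siRNA) against EZH1 (siEZH1), with one against UXT (siUXT), or belonged to a group labelled NC, for which the labels name no siRNA and do not spell out the letters. Each of these 3 groups, called transfections here, had a library labelled TNF, for tumour necrosis factor, an inflammatory cytokine, and one labelled PBS, for phosphate-buffered saline. This made 6 conditions with 1 library each: siEZH1 TNF, siEZH1 PBS, siUXT TNF, siUXT PBS, NC TNF and NC PBS. All 6 libraries were made from poly(A) RNA of the same line. The sources used here do not give the dose and duration of TNF, the siRNA sequences or the time after transfection. The 10 chromatin samples of the series, on H3K27 methylation, were not analysed here.

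PRC2 places methyl groups on lysine 27 of histone H3 (H3K27), a mark of silenced genes. The SET domain of EZH1 or EZH2 carries the enzyme activity, SUZ12 is the scaffold, EED binds the trimethylated mark and stimulates the enzyme, and RBBP4 is a histone-binding WD40 protein shared with other chromatin complexes. One form of the complex carries a Polycomb-like protein (PHF1, MTF2 or PHF19), which binds DNA and helps target it, and another form carries JARID2 and AEBP2. EZH2 is the paralog that dominates in dividing cells, while EZH1 is best known from resting and differentiated ones. UXT is a small prefoldin-like protein. The series title names an EZH1 and SUZ12 complex that acts with UXT on NF-kB target genes, so the question for these genes was how their RNA differed after each siRNA and under TNF.

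The summed FPKM of a library lay between 617998 and 649481. Read depth was not given, but steps among the low values put siEZH1 TNF at 0.718 and NC TNF at 0.727 of the depth of NC PBS. The remaining 3 lay between 0.959 and 1.03 of it. The siUXT PBS library stood apart. At least 2-fold below NC PBS in it were 6.52% of the 11845 loci, against 0.236% to 0.777% of loci past 2-fold in each direction in the other knockdown pairs. Of 9 colorectal epithelial markers, VIL1 and CDX1 were listed at 0 in 5 of the 6 libraries, and the summed level of the list lay between 1688 FPKM in siEZH1 PBS and 2469 in siUXT PBS. The leukocyte markers PTPRC and CD3E and the fibroblast marker DCN were listed at 0 in every library, and the summed levels lay between 0.748 and 2.52 FPKM for 3 leukocyte markers, 5.19 and 8.501 for 4 fibroblast markers, and 0 and 0.122 for 2 endothelial markers. Of the epithelial markers, EPCAM, at 58.7 against 119.7 FPKM, and KRT20, at 0.680 against 0.864 FPKM, were lower in siUXT PBS than in NC PBS. KRT8, at 1108 against 903 FPKM, KRT18, KRT19, CDH1 and CDX2 were higher there. The part of these differences in the results was not tested. Fewer cells of a type and less RNA per cell cannot be told apart in such bulk libraries.

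EZH1, the gene that the siEZH1 preparation targets, was at 4.14 FPKM in siEZH1 TNF and 4.05 in siEZH1 PBS, against 5.12 in NC TNF and 5.45 in NC PBS. In the siUXT libraries it was at 6.23 FPKM under TNF and 6.27 under PBS. The siEZH1 libraries were therefore the lowest and the siUXT libraries the highest, and the 3 transfections did not overlap. Over all tested loci, 28.4% had both siEZH1 libraries below both NC libraries. Both siUXT libraries were above both NC libraries for 17.3%. The share of loci with both traits was not counted. The siEZH1 values were 0.809 of NC under TNF and 0.742 under PBS, so that most of the EZH1 RNA of the NC libraries was still measured. Relative to NC, 24.6% of all tested loci had a lower ratio than EZH1 under TNF and 15.6% under PBS. UXT was at 24.6 FPKM in siUXT TNF and 27.7 in siUXT PBS, against 59.6 in NC TNF and 62.2 in NC PBS. In the siEZH1 libraries UXT was above both NC libraries, at 77.1 FPKM under TNF and 64.9 under PBS. Over all tested loci 31.1% lay above in this way, and under PBS the UXT level was 1.04 times that of NC.

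EZH2, the other catalytic subunit, was at 27.1 FPKM in siEZH1 TNF and 31.5 in siEZH1 PBS, 29.4 in siUXT TNF and 21.1 in siUXT PBS, and 21.7 in NC TNF and 26.3 in NC PBS. Both siEZH1 libraries were above both NC libraries, as was the case for 31.1% of all tested loci, while the siUXT pair spanned the NC range. FPKM is scaled by transcript length, so the paralogs can be set side by side. The level of EZH2 was 6.56 times that of EZH1 in siEZH1 TNF and 7.78 times in siEZH1 PBS, against 4.25 times in NC TNF and 4.82 times in NC PBS. In siUXT TNF it was 4.72 times that of EZH1, and in siUXT PBS 3.38 times. EZH1 made up 13.2% and 11.4% of the summed EZH1 and EZH2 level in siEZH1 TNF and siEZH1 PBS, against 19.0% and 17.2% in NC TNF and NC PBS. The sum itself was 31.3 and 35.5 FPKM in those siEZH1 libraries, against 26.9 and 31.7 FPKM in the NC libraries. EZH2 supplied the larger level in every library.

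SUZ12 varied most of the 10 genes. It was at 20.5 FPKM in siEZH1 TNF and 25.9 in siEZH1 PBS, 14.7 in siUXT TNF and 3.92 in siUXT PBS, and 13.4 in NC TNF and 16.4 in NC PBS. Its highest library was 6.61 times its lowest, and on the log2(FPKM + 1) scale 98.9% of tested loci had a smaller range over the 6 libraries. The siUXT PBS library was far below the other 5. There SUZ12 was at 0.239 of its NC PBS level, and 0.709% of all loci had a lower ratio.

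EED, the subunit that reads the trimethylated mark, followed the same order at the extremes. It was at 12.6 FPKM in siEZH1 TNF and 16.3 in siEZH1 PBS, 12.3 in siUXT TNF and 4.73 in siUXT PBS, and 9.60 in NC TNF and 10.99 in NC PBS. In siUXT PBS it was at 0.430 of NC PBS, and in the siEZH1 libraries at 1.31 times NC under TNF and 1.49 times under PBS. The level of SUZ12 was 1.63 and 1.59 times that of EED in siEZH1 TNF and siEZH1 PBS, 1.20 times in siUXT TNF, 0.829 times in siUXT PBS, and 1.40 and 1.49 times in NC TNF and NC PBS. In siUXT PBS alone was SUZ12 below EED.

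SUZ12 has a partial copy, the pseudogene SUZ12P1, whose reads could be confused with its own. SUZ12P1 was at 4.78 FPKM in siEZH1 TNF and 3.35 in siEZH1 PBS, 3.95 in siUXT TNF and 3.69 in siUXT PBS, and 3.02 in NC TNF and 4.96 in NC PBS. Its siEZH1 values overlapped the NC range, while those of SUZ12 lay above it. In siUXT PBS against NC PBS its log2 ratio was -0.35, and that of SUZ12 was -1.82. In siUXT PBS the SUZ12 level was 1.06 times that of the pseudogene, against 3.31 times in NC PBS. The sources used here do not say how the authors divided reads between the gene and its copy.

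RBBP4 was at 32.0 FPKM in siEZH1 TNF and 33.1 in siEZH1 PBS, 25.7 in siUXT TNF and 17.6 in siUXT PBS, and 19.9 in NC TNF and 26.0 in NC PBS. Again siEZH1 lay above the NC range and siUXT PBS below it. Its paralog RBBP7, which can take its place in PRC2 and is not one of the 10 genes, was at 95.1 and 100.9 FPKM in siEZH1 TNF and siEZH1 PBS, 85.1 and 64.2 in siUXT TNF and siUXT PBS, and 68.3 and 82.8 in NC TNF and NC PBS. The level of RBBP7 was 2.97 to 3.64 times that of RBBP4 over the 6 libraries. The ratio was 2.97 and 3.04 in siEZH1 TNF and siEZH1 PBS, against 3.43 and 3.19 in NC TNF and NC PBS.

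**Figure D1:**
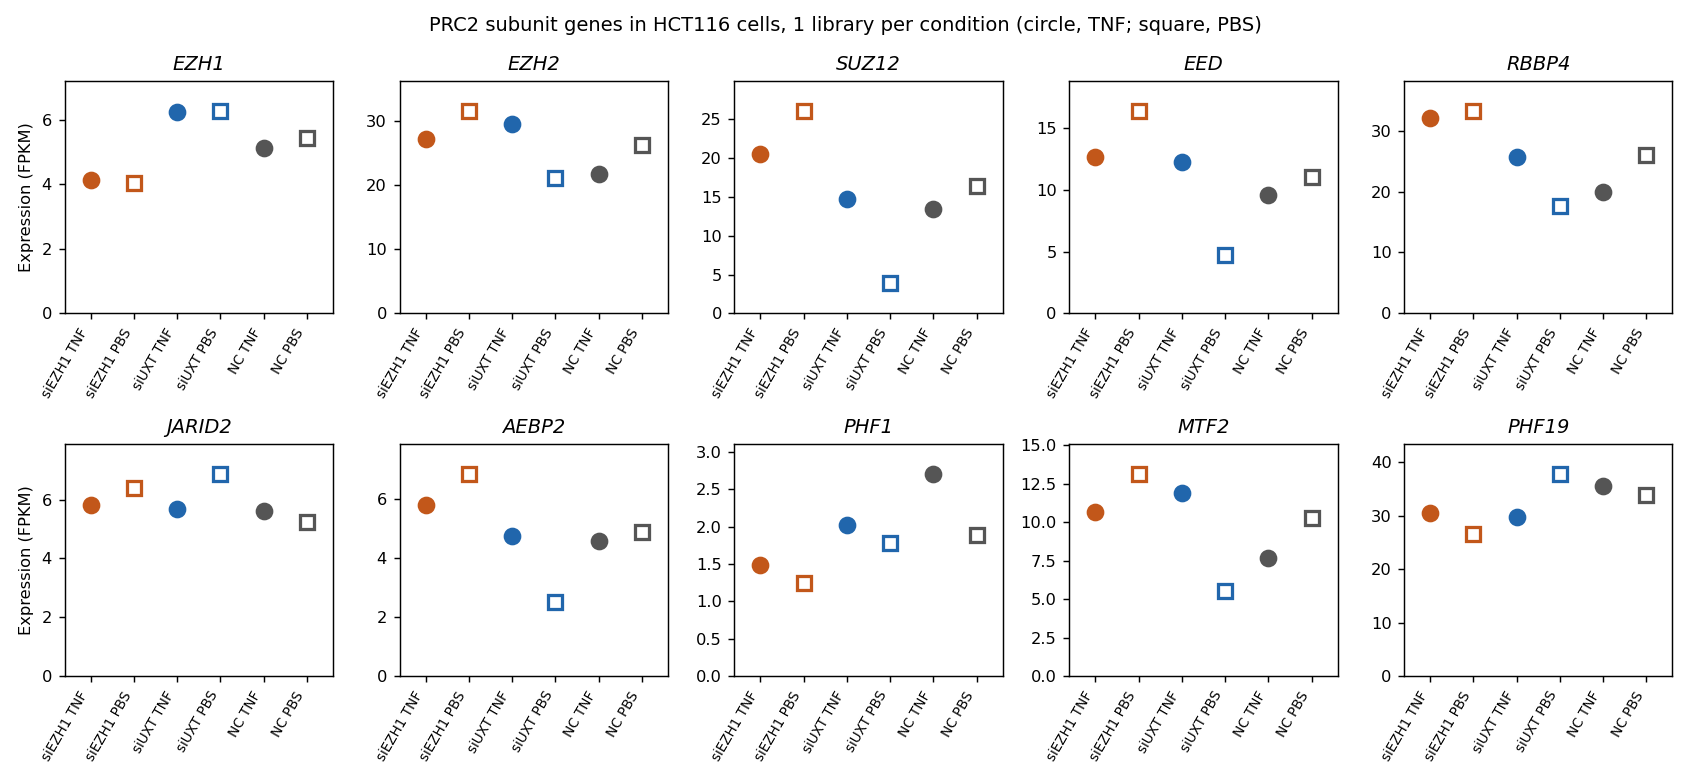
Expression in FPKM (vertical axes, each from 0) of the 10 PRC2 genes in the 6 libraries, 1 point per library; circles are TNF and squares PBS, with siEZH1 in orange, siUXT in blue and NC in grey. SUZ12 is at 3.92 FPKM in siUXT PBS and at 13.4 to 25.9 FPKM in the other 5 libraries, and EZH1 is lowest in the siEZH1 libraries.

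The promoters of SUZ12 and EED are shown because these genes had the lowest ratios of the set in siUXT PBS, and that of EZH1 because it is the siRNA target and did not share this. Each line gives the 250 bases before the annotated start from RefSeq (GRCh38.p14), and capitals mark matches to TTTNNCGC (an E2F motif) or CCAAT (the NF-Y box) on either strand.
SUZ12 promoter, chr17:31936757-31937006, plus strand: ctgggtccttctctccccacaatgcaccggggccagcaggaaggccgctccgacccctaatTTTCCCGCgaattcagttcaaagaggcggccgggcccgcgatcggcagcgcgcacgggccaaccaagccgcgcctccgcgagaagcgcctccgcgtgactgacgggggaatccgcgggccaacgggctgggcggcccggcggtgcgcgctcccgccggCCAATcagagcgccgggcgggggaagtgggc
EED promoter, chr11:86244503-86244752, plus strand: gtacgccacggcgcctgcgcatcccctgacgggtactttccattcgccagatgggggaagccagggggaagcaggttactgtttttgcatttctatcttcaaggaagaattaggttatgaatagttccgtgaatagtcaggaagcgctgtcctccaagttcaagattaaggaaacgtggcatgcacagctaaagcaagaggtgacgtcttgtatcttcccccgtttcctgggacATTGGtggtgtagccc
EZH1 promoter, chr17:42745041-42745290, minus strand: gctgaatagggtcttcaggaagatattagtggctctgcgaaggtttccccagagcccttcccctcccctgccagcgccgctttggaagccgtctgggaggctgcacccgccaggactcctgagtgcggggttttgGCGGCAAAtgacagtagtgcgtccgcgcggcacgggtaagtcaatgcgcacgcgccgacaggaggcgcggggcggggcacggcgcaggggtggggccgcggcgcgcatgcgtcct
The SUZ12 window holds both motifs, the EED window a CCAAT match on the opposite strand, and the EZH1 window a TTTNNCGC match on the opposite strand. The G and C content was 72.8% for SUZ12, 51.2% for EED and 67.6% for EZH1, against a median of 58.0% over 35114 such windows of all genes. All 10 genes had at least 1 window, 14 in total, and those of RBBP4 overlap each other. Apart from that of EED, the windows had a G and C content of 64.4% to 79.6%, above the median of all windows. The shares below were not adjusted for this. TTTNNCGC was present in 4 of the 14 (AEBP2, EZH1, PHF19 and SUZ12), against 5.92% of all windows, and CCAAT in 8 of the 14, against 32.0%. GGGCGG, the GC box, was present in 11 of the 14, against 42.6%. An NF-kB motif, GGG and CC with 5 free bases between them, was also present in 11, against 54.4%. All were searched on both strands, and a GGGCGG match can overlap an NF-kB match. MTF2 held none of the 4 motifs in its window. A match describes the letters of the window and not a bound site.

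Among the accessory subunits, JARID2 varied least of the 10 genes relative to its level. It was at 5.81 FPKM in siEZH1 TNF and 6.38 in siEZH1 PBS, 5.68 in siUXT TNF and 6.87 in siUXT PBS, and 5.62 in NC TNF and 5.22 in NC PBS. The highest library was 1.31 times the lowest. All 4 knockdown libraries lay above both NC libraries, with siUXT TNF and NC TNF nearly equal. Over all tested loci, the siEZH1 pair lay above both NC libraries for 31.1% and the siUXT pair for 17.3%. JARID2 helps to bring the complex to chromatin and is itself methylated by it.

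AEBP2, a zinc finger protein that joins the same form of the complex, was at 5.79 FPKM in siEZH1 TNF and 6.83 in siEZH1 PBS, 4.73 in siUXT TNF and 2.51 in siUXT PBS, and 4.58 in NC TNF and 4.87 in NC PBS. JARID2 and AEBP2 thus parted in siUXT PBS. The level of JARID2 was 2.74 times that of AEBP2 in siUXT PBS, against 1.07 times in NC PBS, and it lay between 0.935 and 1.23 times in the other 4 libraries.

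The Polycomb-like genes differed from each other in direction. MTF2 was at 10.6 FPKM in siEZH1 TNF and 13.1 in siEZH1 PBS, 11.9 in siUXT TNF and 5.52 in siUXT PBS, and 7.69 in NC TNF and 10.3 in NC PBS. PHF19 was at 30.4 FPKM in siEZH1 TNF and 26.5 in siEZH1 PBS, 29.7 in siUXT TNF and 37.8 in siUXT PBS, and 35.5 in NC TNF and 33.8 in NC PBS. Where MTF2 was lowest, in siUXT PBS, PHF19 was highest, and where MTF2 was highest, in siEZH1 PBS, PHF19 was lowest.

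PHF1 was the lowest of the 10 genes in every library, at 1.48 FPKM in siEZH1 TNF and 1.24 in siEZH1 PBS, 2.03 in siUXT TNF and 1.78 in siUXT PBS, and 2.71 in NC TNF and 1.89 in NC PBS. Its level is uncertain. In the gene order of the RefSeq table, 9 of the 10 protein-coding genes listed before PHF1 on chromosome 6 were below 1 FPKM in every library and 5 of them at 0, against 36.7% of all protein-coding symbols below 1 FPKM. These neighbours include RPS18, a ribosomal protein gene, which was listed at 0 in 5 libraries and at 0.313 FPKM in siUXT PBS, and KIFC1, a mitotic kinesin gene, which was listed at 0 in all 6. Of the 10 listed after PHF1, 5 were below 1 FPKM in every library and 3 of them at 0. On that side CUTA was at 0, and BAK1 lay between 17.6 and 34.8 FPKM. An exact 0 for a gene that every cell uses can be a failed estimate.

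PHF19 made up 71.5% and 64.9% of the summed level of the 3 Polycomb-like genes in siEZH1 TNF and siEZH1 PBS, 68.1% and 83.8% in siUXT TNF and siUXT PBS, and 77.4% and 73.6% in NC TNF and NC PBS. The share of MTF2 was 25.0% and 32.1% in siEZH1 TNF and siEZH1 PBS, 27.3% and 12.2% in siUXT TNF and siUXT PBS, and 16.7% and 22.3% in NC TNF and NC PBS. The sum of the 3 genes stayed between 40.9 and 45.9 FPKM. PHF19 therefore had the largest level of the 3 in all 6 libraries, and the balance with MTF2 shifted at a nearly level sum. If PHF1 is underestimated, the shares given for the other 2 are too high.

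**Figure D2:**
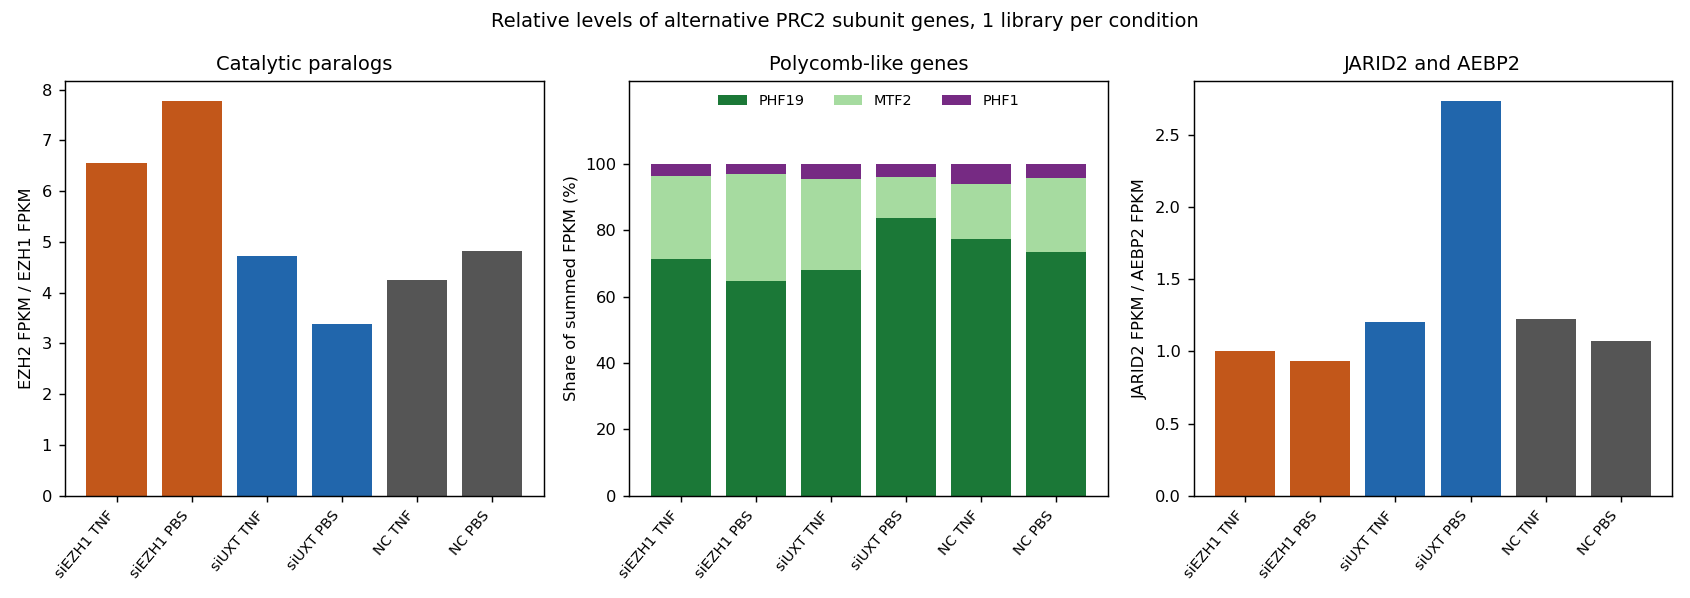
Left, the EZH2 to EZH1 ratio of FPKM; middle, the share of each Polycomb-like gene in their summed FPKM (%); right, the JARID2 to AEBP2 ratio of FPKM; each bar is 1 library. The EZH2 to EZH1 ratio is 6.56 and 7.78 in the siEZH1 libraries against 4.25 and 4.82 in the NC libraries, and the JARID2 to AEBP2 ratio is 2.74 in siUXT PBS.

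By mean level over the 6 libraries the order was PHF19 (32.3 FPKM), EZH2 (26.2), RBBP4 (25.7), SUZ12 (15.8), EED (11.1), MTF2 (9.85), JARID2 (5.93), EZH1 (5.21), AEBP2 (4.89) and PHF1 (1.86). EZH2 and RBBP4 differed by less than their spread over the libraries, whose SD was 4.11 and 6.23 FPKM. So did EZH1 and AEBP2, with SDs of 0.973 and 1.44 FPKM. By mean, PHF19, with an SD of 4.16 FPKM, lay above EZH2 by more than the SD of either, but this did not hold in every library. In siEZH1 PBS, EZH2 was at 31.5 FPKM and PHF19 at 26.5. In siUXT TNF, EZH2 was at 29.4 FPKM and PHF19 at 29.7. JARID2, with an SD of 0.592 FPKM, lay above EZH1 by more than its own SD but less than that of EZH1. The spread contains the differences between conditions. RBBP4 was the highest of the 10 in both siEZH1 libraries and PHF19 in the other 4.

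In siEZH1 against NC, the 10 genes fell into 7 that were higher and 3 that were lower. EZH2, SUZ12, EED, RBBP4, JARID2, AEBP2 and MTF2 were above both NC libraries in both siEZH1 libraries, and EZH1, PHF1 and PHF19 were below both. Over all tested loci 31.1% lay above and 28.4% below in this way, so a siEZH1 pair outside the NC range was common. The median log2 ratio of the 10 genes was 0.30 under TNF and 0.29 under PBS, on the log2(FPKM + 1) scale that understates changes of low genes, against 0.02 and 0.00 for all loci. The highest ratios were those of RBBP4 under TNF (0.66) and SUZ12 under PBS (0.63), and the lowest those of PHF1 (-0.58 and -0.37). SUZ12 was at 0.58 under TNF, and 3.89% of all loci had a higher ratio than it there and 1.63% under PBS. None of the 10 was 2-fold apart from NC in either treatment. At least 2-fold higher were 0.38% of all loci under TNF and 0.236% under PBS, and at least 2-fold lower 0.777% and 0.566%.

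The test was limma, with transfection and treatment as additive terms, fitted across all 11845 loci with Benjamini-Hochberg adjustment. It called 0 of the 10 genes for siEZH1, and 0 had an unadjusted p under 0.05 (1 with no filter or no trend), against 8.21% of all loci. Over all loci it called 0% higher and 0.0169% lower. SUZ12 had a log2 difference of 0.60 ± 0.48 (SE) with a Benjamini-Hochberg adjusted p of 0.67 in limma, RBBP4 one of 0.50 ± 0.25 with 0.61, and PHF1 one of -0.47 ± 0.20 with 0.60. EZH1 itself was at -0.30 ± 0.19, with an adjusted p of 0.64 in limma. The labels do not say whether the TNF and PBS libraries of a transfection were separate transfections, so this error may leave out part of the spread between repeated ones.

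The error of this fit depends on the siUXT libraries, although the siEZH1 difference itself does not. Without siUXT PBS the SUZ12 difference was again 0.60 but its SE 0.08, and limma with Benjamini-Hochberg adjustment called 5 genes higher (SUZ12, RBBP4, EED, MTF2 and EZH2) and PHF19 lower, with adjusted p values between 0.0093 for SUZ12 and 0.042 for PHF19. In the same fit 11.8% of all loci were called higher and 14.7% lower. Neither EZH1 (limma, adjusted p = 0.11) nor PHF1 (0.076), AEBP2 (0.075) or JARID2 (0.40) was called. The same 6 genes were called without siUXT TNF, where 11.3% of loci were called higher and 14.8% lower. Leaving out a siEZH1 or NC library moved the differences themselves. That of SUZ12 was 0.09 without siEZH1 PBS, 0.13 without NC TNF, 1.08 without NC PBS and 1.12 without siEZH1 TNF, and those of EED and MTF2 went down to 0.01, without siEZH1 PBS for EED and without NC TNF for MTF2. Each of those 4 fits leaves 1 library in the siEZH1 or the NC group, so only their differences are given here. All fits without 1 library have 1 residual degree of freedom, and without a siUXT library their residuals rest on how alike the siEZH1 differences from NC were under TNF and PBS.

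In siUXT against NC the PBS and TNF libraries gave different pictures. Under PBS, SUZ12 had a log2 ratio of -1.82 and EED one of -1.07, and these 2 of the 10 genes were at least 2-fold lower, against 6.52% of all loci. MTF2 (-0.79), AEBP2 (-0.74), RBBP4 (-0.53) and EZH2 (-0.30) were lower by less. JARID2 (0.34), EZH1 (0.17) and PHF19 (0.16) were higher, and PHF1 was at -0.06. Under TNF no gene was 2-fold apart, against 0.464% of loci higher and 0.363% lower. There MTF2 (0.57), EZH2 (0.42), RBBP4 (0.35), EED (0.32) and EZH1 (0.24) were higher than in NC TNF, SUZ12 was at 0.13, and PHF1 and PHF19 were at -0.29 and -0.25. The median over the 10 genes was 0.19 under TNF and -0.42 under PBS, against 0.01 and 0.04 for all loci.

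EZH1 and JARID2 were above the NC range in both siUXT libraries and 0 of the 10 genes below it, against 17.3% and 12.9% of all loci. With median-of-ratios size factors EZH1 was above it and JARID2 was not. Limma with Benjamini-Hochberg adjustment called 0 of the 10 genes for siUXT, and 0 had an unadjusted p under 0.05, against 3.65% of all loci. Over all loci 0.0253% were called higher and 0.0169% lower. SUZ12 had a difference of -0.85 ± 0.48 (SE) with an adjusted p of 0.91 in limma, and EED one of -0.37 ± 0.38 with 0.91. UXT, the gene that this siRNA targets, was at -1.19 ± 0.18 (SE) and was not called either, with an adjusted p of 0.69 in limma. A gene left uncalled by this fit may therefore still differ. Without siUXT PBS the SUZ12 difference turned to 0.14 and that of EED to 0.37, and 0 of the 10 were called (limma, lowest adjusted p = 0.083, against 0.439% of loci called higher and 0.65% lower). At an unadjusted p under 0.05 in that fit were 4 of the 10 and 2773 of the 11845 loci. Without siUXT TNF, SUZ12 (-1.84), EED (-1.11), MTF2 (-0.76), AEBP2 (-0.77) and RBBP4 (-0.45) were called lower by limma, at adjusted p values between 4.8e-04 and 0.044, against 18.4% of all loci called lower and 12% higher. That fit takes the lone siUXT PBS library to vary like the other groups. The low values rest on the siUXT PBS library, in which many other loci were also low.

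Both knockdown comparisons share the NC libraries. Set directly against each other under PBS, siUXT was at least 2-fold below siEZH1 for 4 of the 10 genes, against 10.8% of all loci, and at least 2-fold above it for 0, against 1.69%. SUZ12 had a log2 ratio of -2.45 there, EED of -1.60, AEBP2 of -1.16 and MTF2 of -1.12, while EZH1 was at 0.53 and PHF19 at 0.50. Under TNF no gene was 2-fold apart between siUXT and siEZH1, against 0.464% of loci higher and 0.253% lower. The largest ratio there was that of EZH1, at 0.49, and the lowest that of SUZ12, at -0.45.

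**Figure D3:**
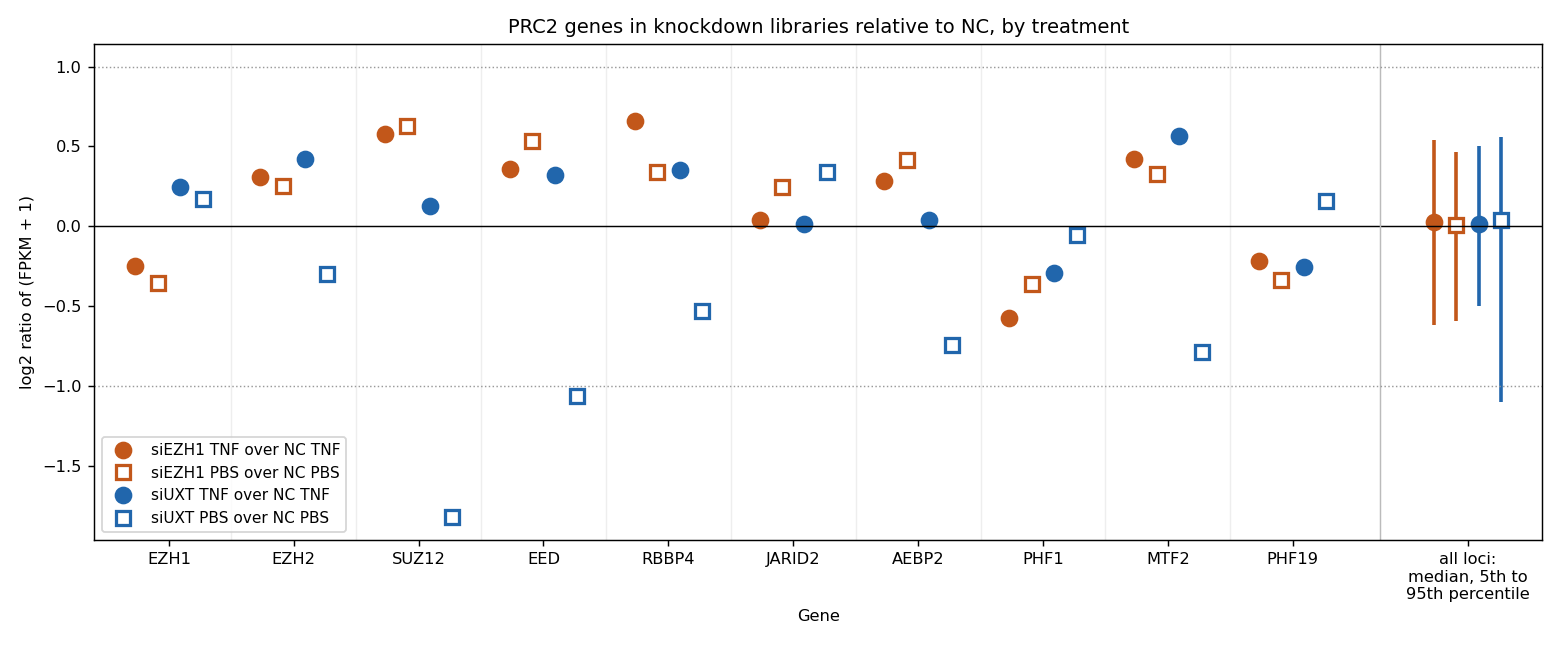
Log2 ratio of (FPKM + 1) of each knockdown library over its NC library (vertical axis) for the 10 genes, with the median and the 5th to 95th percentile of all tested loci at the right; dotted lines mark 2-fold. The siUXT PBS point of SUZ12 lies at -1.82 and that of EED at -1.07, and all other points lie within 2-fold.

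TNF against PBS gave small differences in siEZH1 and NC. In siEZH1 the log2 ratios lay between -0.35 (EED) and 0.19 (PHF19), and in NC between -0.37 (MTF2) and 0.36 (PHF1). EZH2, SUZ12, EED, RBBP4, AEBP2 and MTF2 were lower under TNF than under PBS in both of these transfections, and PHF1 and PHF19 were higher. The share of all loci with the same direction in both was not counted. These TNF libraries were also those of lowest depth, at 0.718 of NC PBS for siEZH1 and 0.727 for NC. The part of depth in these differences was not tested. In siUXT, SUZ12 was at 14.7 FPKM under TNF against 3.92 under PBS, a log2 ratio of 1.68, and EED was at 1.21, MTF2 at 0.98, AEBP2 at 0.71, RBBP4 at 0.52 and EZH2 at 0.46. At least 2-fold higher under TNF in siUXT were thus 2 of the 10 genes, against 6.71% of all loci, and at least 2-fold lower 0, against 0.329%. With a pseudocount of 0.1 or with size factors 3 of the 10 were at least 2-fold higher, and the share of all loci was not counted there. The FPKM of MTF2 under TNF was 2.15 times that under PBS. In siEZH1 and NC 0 of the 10 were 2-fold apart, against 1.03% and 1.27% of loci higher and 0.304% and 0.228% lower.

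EZH1 differed little under TNF in any transfection, with log2 ratios of 0.03 in siEZH1, -0.01 in siUXT and -0.08 in NC. No gene had its 3 TNF libraries all above or all below its 3 PBS libraries, against 3.47% and 3.04% of loci. For TNF, limma called 0 of the 10 genes after Benjamini-Hochberg adjustment, against 0.405% of loci called higher and 0.00844% lower. At an unadjusted p under 0.05 were 0 of the 10, against 3.96% of loci. The estimates ran from -0.09 for JARID2 to 0.36 ± 0.40 (SE) for SUZ12. Without siUXT PBS the SUZ12 estimate was -0.30 and 0 of the 10 were called (limma, lowest adjusted p = 0.11), against 2.47% of loci called higher and 0.295% lower. At an unadjusted p under 0.05 in that fit were 4 of the 10 and 2733 of the 11845 loci. Without siUXT TNF it was again 0 of the 10, against 2.48% and 0.287%.

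**Figure D4:**
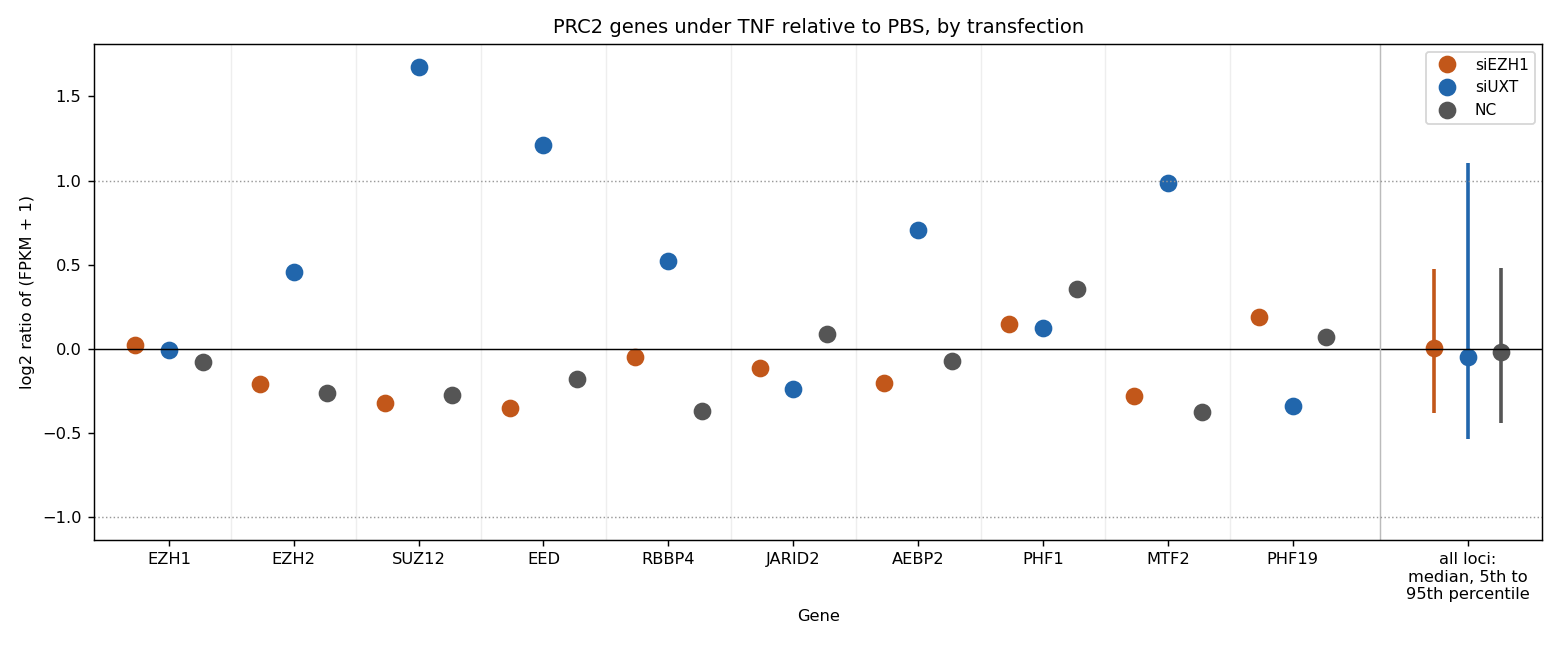
Log2 ratio of (FPKM + 1) under TNF over PBS (vertical axis) for the 10 genes in siEZH1 (orange), siUXT (blue) and NC (grey), with the median and the 5th to 95th percentile of all tested loci at the right; dotted lines mark 2-fold. SUZ12 and EED lie at 1.68 and 1.21 in siUXT, and at -0.35 to -0.18 in the other transfections.

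The genes whose profiles over the 6 libraries were nearest to those of SUZ12, EED and EZH1 were found among 10036 protein-coding loci with 1 symbol, by the root mean square difference of centred log2(FPKM + 1) values. DEPDC1, GPR160 and OSBPL8 were nearest to SUZ12, at 0.07, 0.07 and 0.08. SMARCA5, the ATPase of the ISWI chromatin remodellers, MED4, a Mediator subunit, and BRMS1L, a component of SIN3 deacetylase complexes, were nearest to EED, at 0.04 each. SMARCA5 was at 21.7 and 27.7 FPKM in siEZH1 TNF and siEZH1 PBS, 20.7 and 7.87 in siUXT TNF and siUXT PBS, and 16.6 and 19.1 in NC TNF and NC PBS. The nearest to EZH1 were PPARG, a nuclear receptor, MAOB, a monoamine oxidase, and IL6R, the interleukin-6 receptor, at 0.05, 0.05 and 0.06. Within the complex, EED ranked 313 in nearness to SUZ12, and AEBP2 and MTF2 ranked 476 and 514 in nearness to EED. PHF19 was the PRC2 gene nearest to EZH1, at rank 1577. The values of a gene and its nearest profiles share the same 6 libraries, siUXT PBS among them, and the ranks are a description.

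Other genes of Polycomb and histone methylation were taken from lists of 40 genes, of which 36 were tested. Limma with Benjamini-Hochberg adjustment called 0 of the 36 for siEZH1, siUXT or TNF (lowest adjusted p = 0.55). Over all 11845 tested loci it called 2 for siEZH1, 5 for siUXT and 49 for TNF, so 0 of 36 was near the share of all loci. None of the 36 was at least 1.5-fold apart from NC the same way in both treatments of a knockdown. That was so for 0.464% of all loci higher and 2.38% lower in siEZH1, and 0.346% and 0.279% in siUXT. Of the further PRC2 partners, LCORL and LCOR, which belong to a vertebrate PRC2 cofactor family, were at least 2-fold lower in siUXT PBS, 2 of the 4 tested on that list, against 6.52% of all loci. LCORL was at 4.91 and 6.63 FPKM in siEZH1 TNF and siEZH1 PBS, 4.75 and 0.559 in siUXT TNF and siUXT PBS, and 3.21 and 5.16 in NC TNF and NC PBS. LCOR, whose values are shared with C10orf12, had 2.62 FPKM in siUXT PBS and 6.27 in NC PBS. C17orf96, the EPOP gene, an elongin-binding partner of PRC2, had 24.3 FPKM in siUXT PBS and 21.5 in NC PBS.

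Polycomb repressive complex 1 (PRC1) ubiquitinates histone H2A at many PRC2 targets. Of its 18 tested genes, 7 were above NC TNF in siEZH1 TNF and 8 above NC PBS in siEZH1 PBS, against 52.3% and 50.5% of all loci, with medians of -0.06 and -0.08 on the log2 scale. In siUXT PBS, RNF2, a catalytic RING subunit, was at 3.37 FPKM against 8.02 in NC PBS, and RYBP, a subunit of the variant complexes, at 3.71 against 10.8. These 2 of 18 were at least 2-fold lower, against 6.52% of all loci, and the median of the list was 0.12, against 0.04 for all loci. In siEZH1, RNF2 was at 9.66 and 12.6 FPKM under TNF and PBS, against 6.82 and 8.02 in NC. Both siEZH1 libraries were above both NC libraries for 31.1% of all tested loci, and RNF2 was not called (limma, adjusted p = 0.65). RING1, the paralog of RNF2, was listed at 0 in every library, as was the H3K9 methyltransferase gene EHMT2, so no value can be given for either. Of the H3K27 demethylases, KDM6B was at 7.48, 9.32 and 7.47 FPKM under TNF in siEZH1, siUXT and NC, against 4.11, 6.38 and 4.70 under PBS. All 3 TNF libraries were above all 3 PBS libraries for 3.47% of tested loci, and KDM6B was not called for TNF (limma, adjusted p = 0.55). KDM6A lay between 3.02 and 5.22 FPKM. The medians of the H3K36 methyltransferase and PR-DUB list (8 tested) were 0.17 under TNF and 0.02 under PBS for siEZH1, and -0.03 and -0.02 for siUXT. Those of the H3K9 methyltransferase list (4 tested) were 0.14 and 0.10 for siEZH1, and 0.18 and 0.05 for siUXT.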

How the data were processed

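RNA of 6 HCT116 libraries was measured as FPKM per gene symbol. The FPKM values were used as deposited; per the submitters' processing notes, FastQC, cutadapt, TopHat2 and Bowtie were among the tools and hg19 the build, while the sources used here do not give the program that made the FPKM values, the annotation or the strand setting. Symbols that shared every value were joined into 1 locus (17642 above 0), and those averaging 1 FPKM or more were tested (11845). Read numbers are not known, so no counting interval can be given. Relative depth came from the most frequent ratio between libraries of values under 0.4 FPKM.

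Values were analysed as log2(FPKM + 1) with limma 3.58.1 in R 4.3.3 (additive model of transfection and treatment, eBayes with trend, 2 residual degrees of freedom, Benjamini-Hochberg over all tested loci, threshold 0.05). The fit was tested on simulated data with equal noise in all libraries and larger differences than it gave for the 10 genes. That test does not cover a library that stands apart, as siUXT PBS did. Single pairs of libraries have no test. Alternatives were a pseudocount of 0.1, no filter, median-of-ratios size factors, eBayes without trend and leaving out libraries. The genes, lists and settings were chosen with earlier results of these data known. The text names all 10 genes, related genes called or at least 1.5-fold apart in both treatments (none were), and the 3 nearest profiles; LCORL, LCOR, C17orf96, RNF2, RYBP, KDM6A and KDM6B were named after their values were seen. RefSeq tables (GRCh38.p14) gave gene types, gene order and promoter sequences. Of the related symbols, CXorf67 was not analysed here. Python 3.11.15 with numpy 2.4.6, pandas 2.3.3 and matplotlib 3.10.9 did the rest.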

Additional observations from a re-analysis of the deposited data

Results flagged for a closer look

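Several genes had log2 ratios of (FPKM + 1) of opposite sign, each at least 0.32 in size, for one comparison made in different settings. With 1 library per condition these differences were not tested, and all of them involve the siUXT PBS library. For siUXT against NC, EED was at 0.32 under TNF and -1.07 under PBS, RBBP4 at 0.35 and -0.53, and MTF2 at 0.57 and -0.79. For TNF against PBS, RBBP4 was at 0.52 in siUXT and -0.37 in NC, and MTF2 at 0.98 in siUXT and -0.37 in NC. For the same comparison SUZ12 was at 1.68 in siUXT and -0.32 in siEZH1, and EED at 1.21 in siUXT and -0.35 in siEZH1.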

How the results depend on the processing

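No paired analysis was possible because the labels give no replicate numbers and each condition has 1 library, although the additive model itself sets TNF against PBS within each transfection and each siRNA against NC within each treatment. With all 6 libraries limma (Benjamini-Hochberg) called 2 loci for siEZH1, 5 for siUXT and 49 for TNF, and 0 of the 10 PRC2 genes for each. The loci called became 0 for siUXT with a pseudocount of 0.1 (419 at an unadjusted p under 0.05) and 23 for TNF with no filter. Leaving out each library in turn gave 42 to 3132 loci and 0 to 6 PRC2 genes for siEZH1, 46 to 3604 loci and 0 to 5 PRC2 genes for siUXT, and 126 to 328 loci and 0 PRC2 genes for TNF (1 to 4 of the 10, and 453 to 2733 loci, at an unadjusted p under 0.05). Without the siUXT pair 3101 loci and 6 PRC2 genes were called for siEZH1, and without the siEZH1 pair 65 loci for siUXT. These fits have 1 residual degree of freedom.

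For siEZH1 no difference of the 10 genes changed sign, but over the fits without 1 library several came close to 0. The ranges were 0.09 to 1.12 for SUZ12, 0.01 to 0.88 for EED, 0.20 to 0.80 for RBBP4, 0.01 to 0.28 for JARID2, 0.09 to 0.61 for AEBP2, 0.01 to 0.74 for MTF2, 0.09 to 0.47 for EZH2, -0.35 to -0.26 for EZH1, -0.58 to -0.36 for PHF1 and -0.44 to -0.12 for PHF19. For siUXT, the ranges over the fits without 1 library were -1.84 to 0.14 for SUZ12, -1.11 to 0.37 for EED, -0.45 to 0.27 for RBBP4, -0.77 to 0.07 for AEBP2, -0.76 to 0.54 for MTF2, -0.29 to 0.41 for EZH2 and -0.28 to 0.19 for PHF19. For TNF they were -0.30 to 0.70 for SUZ12, -0.26 to 0.52 for EED, -0.21 to 0.24 for RBBP4, -0.14 to 0.32 for AEBP2, -0.33 to 0.35 for MTF2, -0.23 to 0.13 for EZH2, -0.13 to 0.13 for PHF19 and -0.04 to 0.01 for EZH1. With size factors the TNF estimate of EZH2 was 0.01. The cause of these reversals was not tested.

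The median ratio of the 10 genes in siEZH1 was 0.33 under TNF and 0.32 under PBS with a pseudocount of 0.1, and 0.28 and 0.31 with size factors. With size factors, an alternative added after the data were seen, 1 gene (EZH1) in place of 2 lay above the NC range in siUXT, and the siEZH1 counts of 7 and 3 were the same. Depth, where it can be read, was lowest in NC TNF and siEZH1 TNF, and PHF1, at 1.24 to 2.71 FPKM, rests on the lowest values.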
